A study of Mus musculus with 4 samples.

Results

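Ribosome biogenesis genes encode the proteins that make, modify and assemble ribosomal RNA into ribosomes, and 37 of them were followed here in bone marrow preproB cells with and without an enhancer of Cebpa. The 37 genes were chosen by name, as box C/D and box H/ACA snoRNP proteins, subunits of RNA polymerase I, nucleolar proteins and assembly factors of the small and large ribosomal subunit, a rule that uses names and no measured value. All 37 were found among the 31660 gene names on the array, and all 37 were among the 19402 genes that could be tested. RNA was measured on 4 one-colour Agilent arrays, 2 per group, from sorted C57BL/6 preproB cells (Lin-neg, B220+, CD43+, BP1-, CD24-), an early stage of the B lineage. Control mice carried the floxed enhancer that lies 37 kb from Cebpa, Enh(f/f), without Cre. EnhDel mice were Enh(f/f);Mx1-Cre, so that an interferon-inducible promoter drove the recombinase. All mice, controls included, had received 3 doses of the interferon inducer pIpC 5 weeks before their marrow was taken. Since only the EnhDel mice carried Cre, the recombinase and the deletion cannot be told apart. Per the labels, control replicate 1 came from a female aged 26 weeks, and control replicate 2 and both EnhDel replicates from males aged 24 weeks. Beyond these labels, only the sex-linked genes described below bear on whether the replicates of a group came from separate animals. They differed between the 2 EnhDel arrays and not between the 2 control arrays. The p-values cover no more than the spread between the 4 samples, and the number of arrays limits the precision.

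Ribosome production starts in the nucleolus, where RNA polymerase I transcribes the ribosomal RNA precursor. Small nucleolar ribonucleoproteins (snoRNPs) modify that precursor: box C/D particles methylate ribose groups and box H/ACA particles convert uridine to pseudouridine, while assembly factors fold, cut and export the pre-ribosomes. Many of these genes are textbook targets of MYC, and dividing blood progenitors are known for high demand on this pathway.

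The arrays differed in ways that bear on the genes described here. Cebpa, the gene of the myeloid factor C/EBPα, had background-corrected signals of 1271 and 927 in controls and of 125 and 287 in EnhDel. Its log2 difference was -2.41 ± 0.44 (SE, n = 2 per group), with an adjusted p of 0.235 by limma with Benjamini-Hochberg adjustment. That p was 0.0431 without EnhDel replicate 1, 0.0805 without EnhDel replicate 2, and 0.570 and 0.349 without control replicate 1 and 2. The probe measures the transcript and does not read the enhancer itself. Over all genes tested, the EnhDel arrays lay further apart (SD of the log2 differences 0.611) than the control arrays (0.333), and for the 37 genes these SDs were 0.266 and 0.118. Between 59.6% and 64.9% of probes were well above background on each array, and no spot was saturated. Sex-linked genes went against the labels of 2 samples. Both Xist probes were not well above background in control replicate 1, labelled female, while its Y-linked Ddx3y signal of 3116 lay beside 3474 in control replicate 2 and 3624 in EnhDel replicate 1. In EnhDel replicate 2, labelled male, the Xist probes read 1551 and 597, and Ddx3y read 1560. Results are therefore also given without these arrays. Without the library labelled control replicate 1 the median log2 difference of the 37 genes was -0.04, without EnhDel replicate 2 it was 0.01, and no gene of the 37 passed the adjusted threshold in either case. Of the sorting markers, Ptprc (B220) and Spn (CD43) were well above background on all 4 arrays and Enpep (BP1) on none. Cd24a, whose protein the sort selected against, read 4779 and 6366 in controls and 4386 and 1910 in EnhDel. Of 12 preproB and early B markers, 12 were well above background on all 4 arrays, as were 8 of 8 plasmacytoid dendritic cell markers, a lineage that shares B220.

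Promoter letters were read for the members from RefSeq (build GRCm38.p6, 250 bases before to 50 after each start), and 32 of the 37 genes had an entry. The E-box CACGTG, the site that MYC and MAX bind and which reads the same on both strands, was in 7 of the 32 promoters (21.9%) and in 8.09% of the promoters of 27025 genes. The ETS-type motif CCGGAAGT, searched on both strands, was also in 7 of 32 (21.9%), against 4.31% of all promoters. The inverted CCAAT motif ATTGGCTG, searched on both strands, was in 1 of 32 (3.12%), against 4.42%. No motif overlaps another in its letters, and Ltv1 and Tsr1 held both an E-box and an ETS-type motif. The windows with an E-box are shown because Myc, a known regulator of the pathway, was measured on the same arrays; all 7 are given, with the E-box in capitals.
Utp20: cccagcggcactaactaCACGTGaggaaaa
Wdr43: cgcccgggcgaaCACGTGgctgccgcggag
Imp4: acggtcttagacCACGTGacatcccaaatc
Ltv1: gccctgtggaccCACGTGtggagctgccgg
Tsr1: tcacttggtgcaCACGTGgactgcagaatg
Pes1: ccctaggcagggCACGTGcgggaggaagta
Nop2: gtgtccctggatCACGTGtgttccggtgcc
The Utp20 window lies on the minus strand at chr10:88826765-88826794 with the motif 38 bases after the start, and the Wdr43 window on the plus strand at chr17:71616220-71616249 with the motif 18 bases after it. The Imp4 window is at chr1:34439696-34439725 (plus, motif 121 bases before the start), and the Nop2 window at chr6:125131811-125131840 (plus, 60 before). The Ltv1 window is at chr10:13193092-13193121 (minus, 29 after), the Tsr1 window at chr11:74898092-74898121 (plus, 25 after) and the Pes1 window at chr11:3963965-3963994 (plus, 3 after). The ETS-type motif was held by Nhp2, Gar1, Heatr1, Ltv1, Tsr1, Noc2l and Ppan, whose log2 differences ran from -0.28 (Gar1) to 0.16 (Ppan), with 3 below 0, 4 above and a median of 0.008. Windows are shown for the box H/ACA genes among them, a choice made after their values were seen, with the motif in capitals.
Nhp2: cacttgaaaacCCGGAAGTgatgtcggagg
Gar1: cgcgccgccacACTTCCGGaaacgtcgcgt
The Nhp2 window is at chr11:51619739-51619768 (plus, motif 23 bases before the start), and the Gar1 window at chr3:129831422-129831451 (minus, 44 before), where the capitals give the motif as read on the other strand. A match of letters is a description and not a measured site. The 7 genes with an E-box had log2 differences of -0.06 (Pes1) to 0.13 (Tsr1), with a median of 0.05.

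None of the 37 ribosome biogenesis genes passed an adjusted p of 0.05 between EnhDel and control cells, in a comparison that called 0.0% of all genes tested. The lowest adjusted p of the 37, from limma with Benjamini-Hochberg adjustment, was 0.557. At an unadjusted p of 0.05 limma called 0 of the 37 genes, against 11.2% of all genes tested (3.96% lower and 7.27% higher in EnhDel). The median log2 difference, EnhDel minus control, was -0.02 over the 37 genes and 0.07 over all genes tested. Single genes lay between -0.34 (Wdr12) and 0.16 (Ppan). Below 0 were 21 of the 37 (56.8%), against 40.2% of all genes tested. These directions depend on the scaling: after median scaling, which moved the median of all genes to -0.13, all 37 differences were below 0, with a median of -0.22. Relative to the median of all genes, the members' median was -0.09 under both scalings, which must be equal because each shifts all genes of an array alike. A difference of at least 2-fold was found for 0 of the 37, against 6.34% of all genes tested. The 95% interval of the difference lay within 2-fold in either direction for 37 of 37 genes, against 67.5% of all genes tested, with the widest bounds at -0.94 (Nop58) and 0.83 (Rrp12). Leaving out 1 control array lowered that number to 16 or 15 of 37. The 37 genes were brighter than most, with a median level percentile of 69.0 and all well above background on all 4 arrays. Their median SE was 0.164, against 0.196 over all genes tested. The shares of all genes are therefore not matched for level.

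The groups overlapped for 22 of the 37 genes. Both EnhDel arrays lay below both control arrays for 8 genes (21.6%, against 15.5% of all genes tested), namely Nop56, Dkc1, Gar1, Npm1, Rrs1, Wdr12, Nop16 and Mrto4. Both lay above for 7 genes (18.9%, against 28.6%), namely Gnl3, Rrp9, Wdr43, Noc4l, Tsr1, Bop1 and Ppan. In total 15 of the 37 were without overlap (40.5%), against 44.1% of all genes tested. After median scaling the split was 25 lower (35.0% of all genes tested) and 0 higher (13.1%), and after quantile normalization it was 9 lower (20.2%) and 9 higher (22.1%). The 8 genes named as lower were without overlap in that direction under all 4 scalings compared (75th percentile, quantile, median and cyclic loess). They were picked under the first of these, and median scaling raised the share of lower genes, so this is a description. The share of all genes that did the same is not given here. Of the 7 named as higher, Gnl3, Rrp9, Noc4l, Bop1 and Ppan stayed so after quantile and cyclic loess normalization, and 0 after median scaling.

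**Figure D1:**
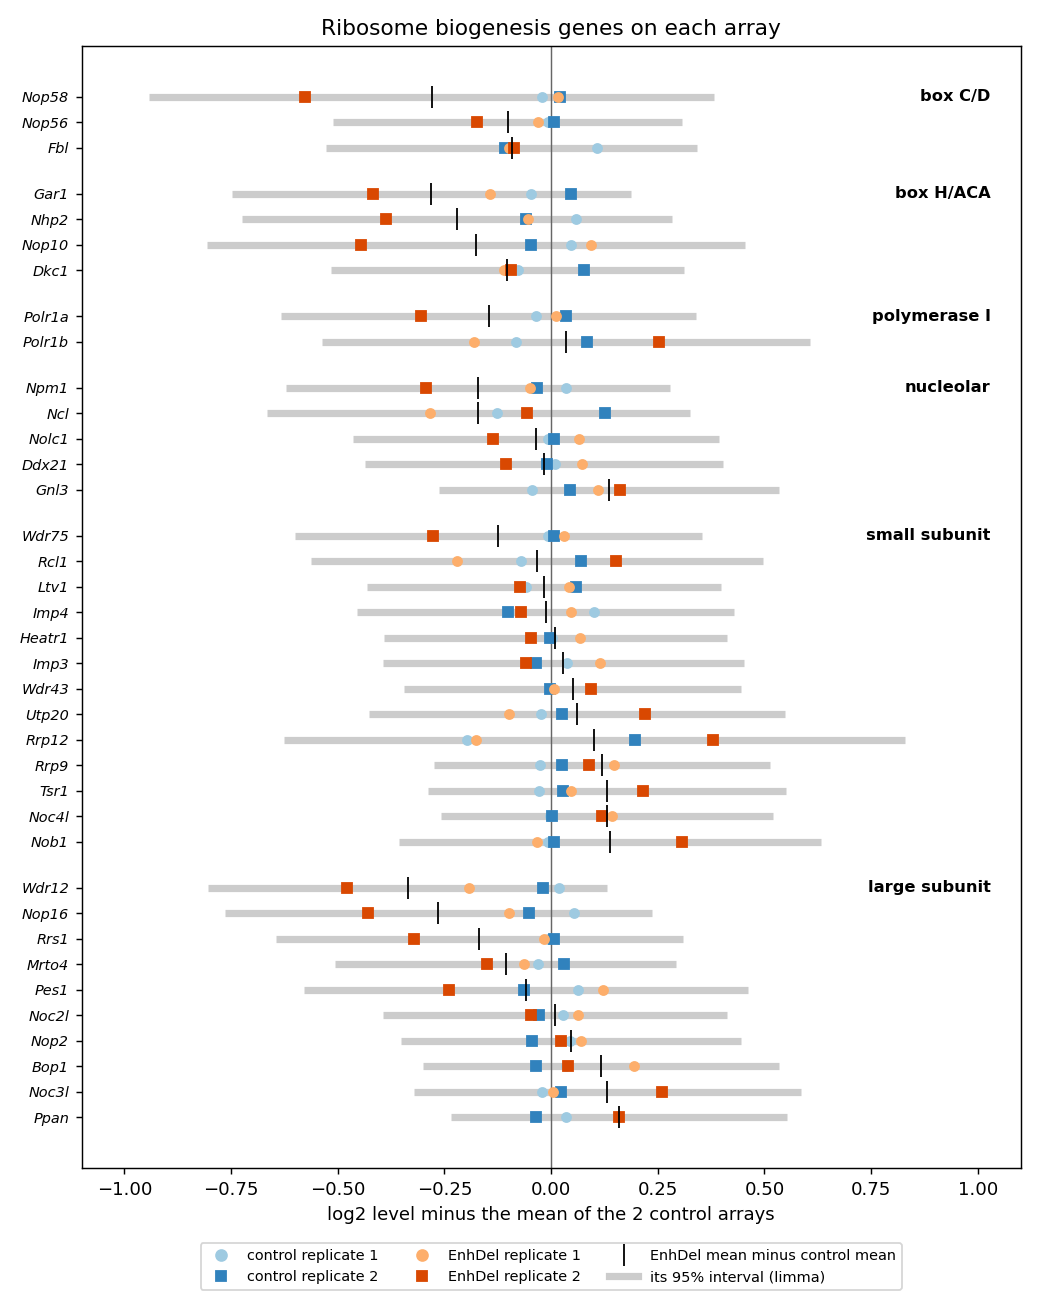
Each of the 37 ribosome biogenesis genes on each of the 4 arrays, as the log2 level minus the mean of the 2 control arrays (horizontal axis), ordered by role. Points and squares are single arrays, black ticks the EnhDel mean minus the control mean, and grey bars its 95% interval from limma. The ticks lie between -0.34 (Wdr12) and 0.16 (Ppan) and every grey bar crosses 0, while EnhDel replicate 2 reaches -0.58 for Nop58.

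Box C/D proteins read slightly lower in the EnhDel mean for 3 of 3 genes, with a median log2 difference of -0.10 and the same direction under the other 3 scalings, and none passed the test. Values below are scaled signals, that is, the background-corrected signal divided by the array's 75th percentile, and they are compared within a gene only. Nop58, a core scaffold protein of the particle, had scaled signals of 4.70 and 4.84 in controls and 4.83 and 3.20 in EnhDel. One EnhDel array thus lay at the control level and the other below it, and the difference was -0.28 ± 0.25 (SE). Nop56, its partner in the scaffold, had scaled signals of 11.2 and 11.3 in controls and 11.0 and 9.99 in EnhDel (difference -0.10 ± 0.15). Fbl, the fibrillarin methyltransferase of the particle, read 12.27 and 10.55 against 10.62 and 10.72, so that its controls spanned the EnhDel arrays.

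Box H/ACA proteins read lower in the EnhDel mean for 4 of 4 genes, with a median log2 difference of -0.20 and adjusted p-values of 0.615 to 0.839 in limma. Gar1, a core protein of the particle, had scaled signals of 5.79 and 6.18 in controls and 5.41 and 4.48 in EnhDel, with a difference of -0.28 ± 0.17 and no overlap. Dkc1, the pseudouridine synthase dyskerin, had 0.603 and 0.672 against 0.590 and 0.596, also without overlap (-0.10 ± 0.15). The EnhDel arrays read 82.3% of the control mean for Gar1 and 93.2% for Dkc1. For Nhp2, a core RNA-binding partner, the values were 20.8 and 19.1 in controls and 19.2 and 15.2 in EnhDel (-0.22 ± 0.19). Nop10, the smallest core protein, had 7.89 and 7.40 against 8.15 and 5.61 (-0.18 ± 0.23). For both Nhp2 and Nop10, EnhDel replicate 1 lay within or above the control values and EnhDel replicate 2 below them. The 7 snoRNP proteins of both classes were below 0 in 5 of 7 cases on EnhDel replicate 1 and in 7 of 7 on EnhDel replicate 2. Their mean differences were below 0 in 7 of 7 cases under all 4 scalings, with a median between -0.38 (median scaling) and -0.17. Under the 75th percentile scaling 40.2% of all genes tested were below 0. After median scaling all 37 members were below 0, so the 7 do not stand apart there. The count also depends on the grouping: Rrp9, a snoRNP protein placed here with the small subunit, differed by 0.12, and Snu13, outside the 37, by -0.002. The median was -0.05 without EnhDel replicate 2 and -0.39 without EnhDel replicate 1, and with normexp 6 of 7 were below 0.

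The catalytic subunits of RNA polymerase I had differences on both sides of 0 with the 75th percentile scaling, and both were below 0 after quantile, median or cyclic loess normalization. Polr1a, the largest subunit, had scaled signals of 1.27 and 1.33 in controls and 1.31 and 1.05 in EnhDel (-0.15 ± 0.18). Polr1b, which forms the active centre with it, had 0.343 and 0.385 against 0.320 and 0.432 (0.04 ± 0.21). The groups overlapped for both subunits, and EnhDel replicate 2 was the lowest array for Polr1a and the highest for Polr1b.

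Among 5 nucleolar proteins, 4 differences were below 0 and the median was -0.04, while without EnhDel replicate 2 only 2 were below 0 and the median was 0.06. Npm1 (nucleophosmin), a chaperone of pre-ribosomes, had scaled signals of 55.4 and 52.9 in controls and 52.3 and 44.2 in EnhDel (-0.17 ± 0.17), without overlap. Ncl (nucleolin), which binds pre-ribosomal RNA, had 12.1 and 14.4 against 10.8 and 12.7 (-0.17 ± 0.18), and its groups overlapped. Gnl3 (nucleostemin), a nucleolar GTPase of progenitor cells, was the exception in direction, with 0.777 and 0.826 in controls and 0.865 and 0.896 in EnhDel (0.14 ± 0.15). Nolc1, a chaperone of snoRNPs, differed by -0.04 ± 0.16, and Ddx21, an RNA helicase, by -0.02 ± 0.16. Both of these had overlapping groups, with EnhDel replicate 1 the highest array and EnhDel replicate 2 the lowest.

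Small-subunit factors had a median of 0.05, with 9 of 13 above 0 and 4 below, a direction that median scaling turned for all 13 (median -0.15), and none passed the test. Relative to the median of all genes tested, the group stood at -0.02 under both scalings, which shift all genes of an array alike. Noc4l, a nucleolar factor of small-subunit assembly, had scaled signals of 1.27 and 1.28 in controls and 1.41 and 1.39 in EnhDel (0.13 ± 0.14). Tsr1, a late assembly factor, had 1.12 and 1.16 against 1.18 and 1.33 (0.13 ± 0.16). Rrp9, a protein of the snoRNP that starts precursor cleavage, had 0.830 and 0.859 against 0.936 and 0.899 (0.12 ± 0.15). Together with Wdr43 (0.05 ± 0.15, and -0.18 for its other probe) these were the 4 of 13 small-subunit factors without overlap, all higher in EnhDel. That is close to the 28.6% of all genes tested that were higher without overlap. None of the 4 was higher without overlap after median scaling. Wdr43, Wdr75 and Heatr1 belong to the complex that joins transcription to early processing. Wdr75 had 2.46 and 2.48 in controls and 2.52 and 2.04 in EnhDel (-0.12 ± 0.18), and Heatr1 had 6.13 and 6.11 against 6.41 and 5.93 (0.01 ± 0.15). Members of that one complex therefore lay on both sides of 0. Imp3 (0.03 ± 0.16) and Imp4 (-0.01 ± 0.16), which bring the guide snoRNA to the precursor, were close to 0. Nob1, the nuclease of the last cleavage, had 0.241 and 0.243 against 0.237 and 0.299 (0.14 ± 0.18). Rrp12, an export factor, had 0.0699 and 0.0918 against 0.0709 and 0.104 (0.10 ± 0.27) and the widest interval among the members, -0.63 to 0.83. Its low signal made it sensitive to the background step, with a difference of 0.94 under normexp correction. The remaining small-subunit factors, Utp20 (0.06 ± 0.18), Rcl1 (-0.03 ± 0.20) and the export adaptor Ltv1 (-0.02 ± 0.15), had overlapping groups.

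Large-subunit factors were divided, with 5 of 10 below 0 and a median of -0.03. After median scaling 10 of 10 were below 0, and with normexp background correction 9 of 10 (median -0.20). Wdr12 had the lowest p of the 37 genes, an unadjusted 0.120 in limma, with scaled signals of 1.29 and 1.26 in controls and 1.12 and 0.915 in EnhDel. Its difference was -0.34 ± 0.17, which is 79.2% of the control level, and its 2 probes gave -0.34 and -0.32. Wdr12 forms the PeBoW complex with Pes1 and Bop1. Pes1 had 1.22 and 1.12 in controls and 1.27 and 0.990 in EnhDel (-0.06 ± 0.19), and Bop1 had 3.83 and 3.65 against 4.28 and 3.85 (0.12 ± 0.16). The 3 partners thus had differences on both sides of 0, and the contrast among them was not tested. Nop16, a nucleolar assembly factor, had 0.979 and 0.910 against 0.881 and 0.700 (-0.26 ± 0.19). Rrs1, which takes part in building the central protuberance, had 1.59 and 1.60 against 1.57 and 1.27 (-0.17 ± 0.18). Both lay below the controls on both EnhDel arrays, by little on replicate 1. Mrto4, which holds the place of the stalk protein during assembly, had 2.11 and 2.20 against 2.07 and 1.95 (-0.11 ± 0.15). Ppan, an early assembly factor, had 3.22 and 3.07 in controls and 3.50 and 3.51 in EnhDel (0.16 ± 0.15). Its EnhDel arrays were close to each other and above both controls. The other large-subunit genes overlapped between groups: Noc3l differed by 0.13 ± 0.17, the methyltransferase gene Nop2 by 0.05 ± 0.15, and Noc2l by 0.01 ± 0.15.

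Taken array by array, EnhDel replicate 1 and EnhDel replicate 2 gave different pictures of these genes. EnhDel replicate 1 had a median of 0.01 against the control mean, with 16 of 37 genes below 0, and EnhDel replicate 2 a median of -0.07, with 23 below 0. When EnhDel replicate 1 alone was compared with the controls, limma called 0 of 37 genes at an adjusted p of 0.05 (0.258% of all genes tested) and 0 at an unadjusted p of 0.05 (15.5% of all genes tested, 5.82% lower and 9.65% higher). With EnhDel replicate 2 alone, it called 0 of 37 at an adjusted p of 0.05, while 15.3% of all genes tested were called; the lowest adjusted p of a member was 0.0608. At an unadjusted p of 0.05, 6 of the 37 genes (16.2%) were lower on that array, against 13.2% of all genes tested, and 0 were higher, against 25.1%, so that 38.3% of all genes passed in either direction. In these comparisons the lone array is assumed to vary like the control pair.

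The 6 genes lower on EnhDel replicate 2 were Nop58, Nop10, Nhp2 and Gar1 of the snoRNPs and Wdr12 and Nop16 of the large-subunit factors. On that array Nop58 lay 0.58 below the control mean on the log2 scale, and on EnhDel replicate 1 it lay 0.02 above. Wdr12 differed from the control mean by -0.48 on EnhDel replicate 2 and by -0.19 on replicate 1. For Nop10 the values were -0.45 and 0.09. These genes were picked by their values on EnhDel replicate 2, so their distance from the controls there is a description. Nop16 (-0.43 and -0.10), Gar1 (-0.42 and -0.14) and Nhp2 (-0.39 and -0.05) were below 0 on both arrays. The largest deviation upward on EnhDel replicate 2 was Rrp12, at 0.38 above the control mean, and it stood at -0.18 on replicate 1. The array probes of these 6 genes lie, in mouse build mm9 as the array files give it, at chr1:59768230-59768289 (Nop58), chr2:112102712-112102771 (Nop10), chr11:51436872-51436931 (Nhp2), chr3:129527855-129527914 (Gar1), chr1:60134982-60135040 (Wdr12) and chr13:54686644-54686703 (Nop16).

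**Figure D2:**
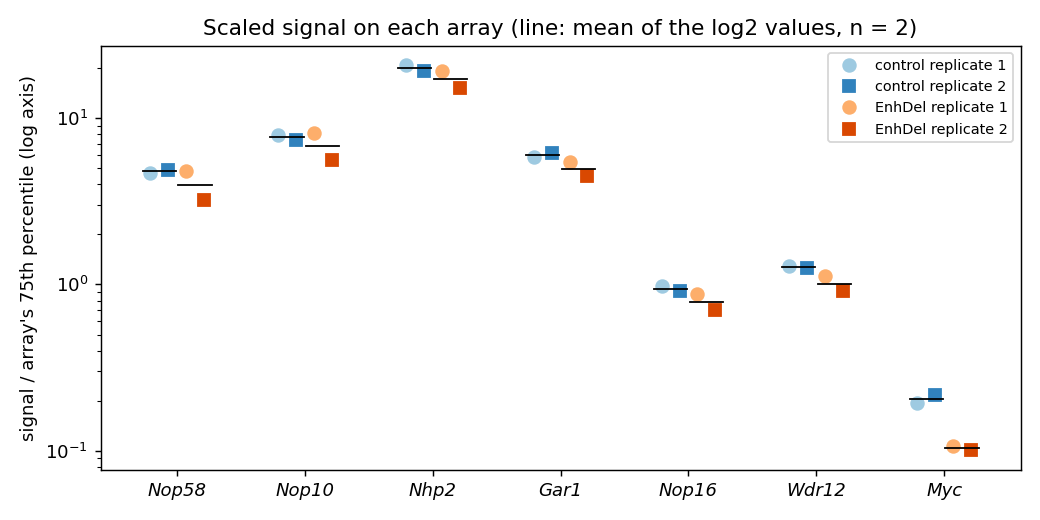
Scaled signal (background-corrected signal divided by the array's 75th percentile, log axis) of the 6 genes that were lower on EnhDel replicate 2 and of Myc, on each array, with lines at the mean of the log2 values of each group (n = 2). For Nop58 and Nop10 the EnhDel replicate 1 points (4.83 and 8.15) lie within or above the control points, and for Myc both EnhDel points (0.107 and 0.101) lie below both control points.

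Several probes were available for 10 of the 37 genes. None of the 50 member probes tested passed an unadjusted p of 0.05 in limma, and 0 passed an adjusted one. Of all genes tested, each by its brightest probe, 11.2% passed the unadjusted threshold and 0.0% the adjusted one. The share over all 24289 probes tested is not given here. The probes of 6 of these genes had differences on the same side of 0, among them the 3 probes of Nop56 (-0.23 to -0.10). Npm1 (-0.17 to 0.06 over 4 probes), Nolc1 (-0.04 to 0.12), Pes1 (-0.06 to 0.17) and Wdr43 (-0.18 to 0.05) had probes on both sides.

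Other genes of the pathway had a median near 0 as well under the scaling used. Of 111 further ribosome biogenesis genes on the array, 109 were tested, 0 passed an unadjusted p of 0.05 in either direction, 56 lay below 0 and the median log2 difference was -0.002. After median scaling 104 of the 109 lay below 0 (median -0.21), with normexp 76, and without EnhDel replicate 2 the number was 34. Snu13, which binds box C/D RNA, had a difference of -0.002 ± 0.16, and Naf1, an assembly chaperone of box H/ACA particles, one of 0.03 ± 0.18. Among polymerase I factors, the initiation factors Rrn3 and Ubtf had differences of 0.01 ± 0.18 and -0.05 ± 0.22. The shared polymerase I and III subunits Polr1c and Polr1d had -0.03 ± 0.15 and -0.23 ± 0.19. Bms1, a GTPase of small-subunit processing, had the highest of the named values, 0.21 ± 0.21, with overlapping groups. Nat10 (-0.06 ± 0.17) and Utp14a (-0.03 ± 0.25) of the small subunit and Nip7 (-0.03 ± 0.19), Ebna1bp2 (-0.03 ± 0.17) and Eif6 (0.04 ± 0.15) of the large subunit were all within 0.1 of 0. By sublist, the median was -0.03 over 9 further snoRNP genes, -0.02 over 12 polymerase I genes, 0.02 over 35 small-subunit genes, 0.02 over 40 large-subunit genes and -0.07 over 13 exosome genes.

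The cytosolic ribosomal proteins, the building blocks that these factors assemble, had a median log2 difference of -0.11 over 75 tested genes. None passed an unadjusted p of 0.05, and 67 lay below 0, a count that was 49 after quantile normalization and 51 after cyclic loess (median -0.02 in both), 41 with the authors' deposited values and 74 after median scaling. EnhDel replicate 1 stood at 0.05 and EnhDel replicate 2 at -0.26, where 73 of 75 were below 0. Values below the control mean thus lay mainly on EnhDel replicate 2, and without that array 14 of 75 were below 0. The controls differed in these genes as well. Control replicate 2 minus control replicate 1 had a median of -0.14 and a highest value of -0.002.

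**Figure D3:**
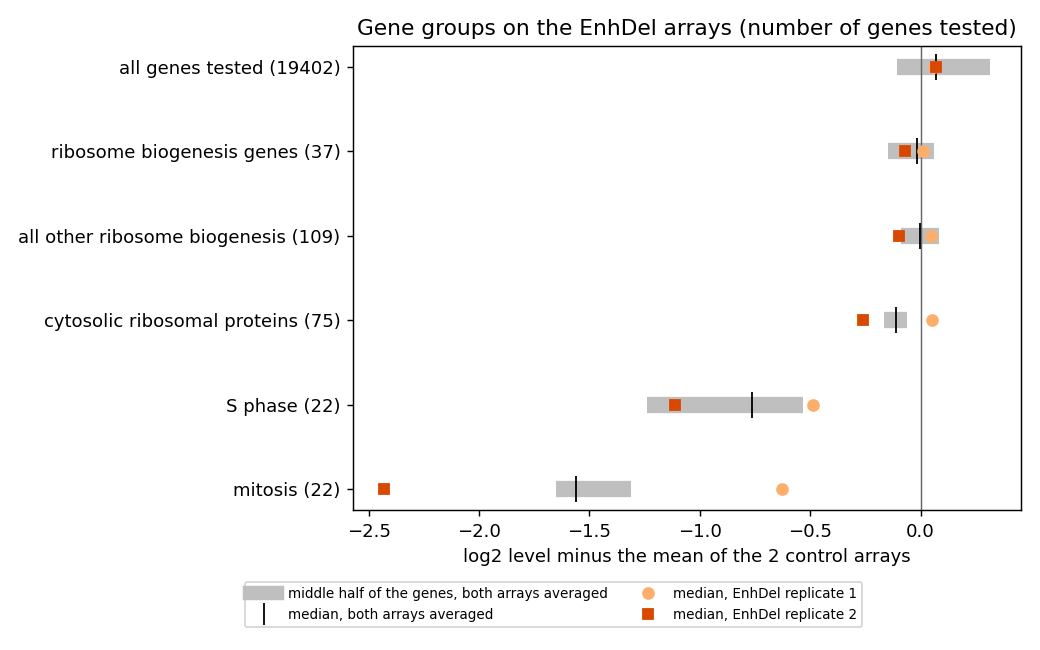
Median log2 level minus the mean of the 2 control arrays for gene groups, with the number of genes tested in brackets. Grey bars span the middle 50% of genes and black ticks mark the median of both EnhDel arrays averaged, while points and squares are the medians on single EnhDel arrays. The 37 genes sit at -0.02, the cytosolic ribosomal proteins at -0.11, S phase genes at -0.76 and mitosis genes at -1.56.

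Myc, the transcription factor whose targets include many of the 37 genes, had scaled signals of 0.194 and 0.217 in controls and 0.107 and 0.101 in EnhDel. Both EnhDel arrays lay below both controls, with a log2 difference of -0.98 ± 0.16 and an adjusted p of 0.211 by limma with Benjamini-Hochberg adjustment. The adjusted p in limma was 0.0376 without EnhDel replicate 1, 0.127 without EnhDel replicate 2, and 0.806 and 0.990 without control replicate 1 and 2. With normexp background correction the difference was 0.009, and -0.67 once 6 spots with a distorted local background on EnhDel replicate 1 had been repaired. Mycn was not well above background on either control array (measured signals 9.54 and 15.1 against 74.3 and 22.3 in EnhDel). Its EnhDel mean lay 2.97-fold above the controls when these were set no lower than the lowest signal well above background. Most of it came from EnhDel replicate 1 (2.80 above the measured control mean on the log2 scale, against 0.94 on replicate 2). The limma interval of the measured difference was 0.09 to 3.65, with an adjusted p of 0.432. Max, the partner of MYC, had a difference of 0.35 ± 0.15 (adjusted p 0.479). Mxd3, a MAX-binding repressor expressed in S phase, had -1.82 ± 0.64 (adjusted p 0.430), and Mxd1, an antagonist of MYC, had 0.73 ± 0.40, most of it from EnhDel replicate 2 (1.27 against 0.19 on replicate 1). No gene of the network passed the adjusted threshold with all 4 arrays. Under the main scaling the E-box genes listed above had differences between -0.06 and 0.13. After median scaling all of them were negative, from -0.26 (Pes1) to -0.07 (Tsr1). Whether the levels of these genes follow Myc was not tested.

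Cell cycle genes had larger differences between the same arrays than the ribosome biogenesis genes. Of 22 S phase genes tested, 20 were below 0 and the median was -0.76 (EnhDel replicate 1 at -0.49, EnhDel replicate 2 at -1.11), and 10 were lower at an unadjusted p of 0.05. Of 22 mitosis genes, 22 were below 0, with a median of -1.56 (-0.63 and -2.43), and 3 were lower at that p. Of all genes tested, 3.96% were lower at that p. Cenpf and Ttk were tested only through the controls, and with the filter at all 4 arrays 20 of 20 mitosis genes were below 0. The summed scaled signal for S phase was 151 and 160 in controls and 139 and 95.4 in EnhDel. For mitosis it was 54.4 and 79.5 against 44.9 and 12.7. On EnhDel replicate 2 alone the median against the control mean was -1.11 for S phase and -2.43 for mitosis genes. It was -0.07 for the 37 ribosome biogenesis genes and 0.07 for all genes tested. EnhDel replicate 2 had the lowest cell cycle levels of the 4 arrays, and the part of cell cycle in the values of the 37 genes was not tested.

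Markers of other cells also differed in level between the groups, without passing the adjusted threshold. The summed scaled signal of 6 tested erythroid markers was 0.394 and 0.821 in controls and 1.42 and 1.73 in EnhDel, with 6 of 6 above 0. Klf1 and Epor were not well above background in controls, and Alas2 was not on control replicate 1. These genes were tested only through the EnhDel arrays, so the filter favoured their direction. For 6 monocyte markers the sum was 17.4 and 15.6 against 6.06 and 5.60, with 6 of 6 below 0. Among them Lyz2 was well above background in controls only, so the filter favoured its direction too. T and NK markers had 13.2 and 11.1 against 20.4 and 33.6 (6 of 7 above 0). Most of the T and NK sum was Cd4 (1.29 ± 0.33), and the median of that list was 0.52. Neutrophil markers had 105 and 110 against 78.0 and 116 (5 of 8 below 0). Klrb1c of the T and NK list and S100a8 of the neutrophil list, both below 0, were tested only through the controls. Most of the neutrophil sum was Csf3r (0.02 ± 0.22), while the median of that list was -1.04 and the granule gene Mpo had a difference of -2.90 ± 1.24. PreproB and early B markers summed to 121 and 123 against 110 and 86.0 (9 of 12 below 0). That sum was led by Dntt (0.13 ± 0.24), and the median of the list was -0.91, with Igll1 at -3.40 ± 0.86, Vpreb1 at -3.06 ± 0.88, Ebf1 at -2.34 ± 0.53 and Rag1 at -2.20 ± 0.59. Plasmacytoid dendritic cell markers summed to 1130 and 1027 against 1119 and 1009 (4 of 8 below 0). The part of these cells in the values of the 37 genes was not tested. In such bulk samples, fewer cells of a type and less RNA per cell cannot be told apart.

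**Figure D4:**
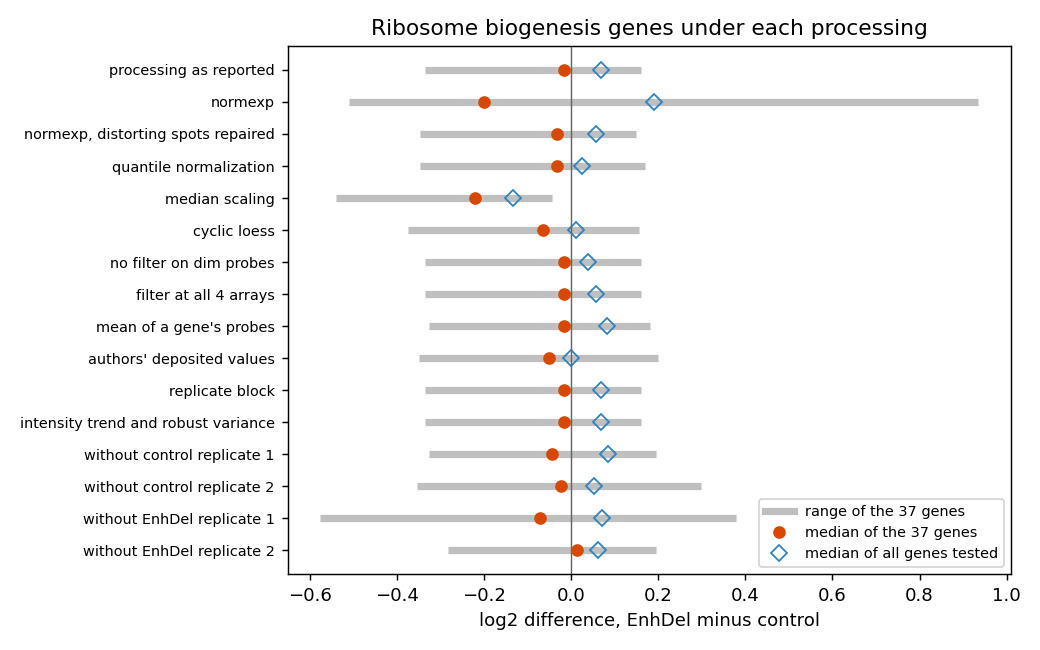
Log2 difference, EnhDel minus control, of the 37 ribosome biogenesis genes under 16 ways of processing the arrays: the range over the genes (grey bar), their median (filled point) and the median of all genes tested (open diamond). The median of the 37 genes lies below the median of all genes in all 16, by 0.05 to 0.39, and after median scaling the whole range lies below 0.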

How the data were processed

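RNA from 4 samples, 2 control and 2 EnhDel, was measured on one-colour (Cy3) arrays after linear amplification, per the labels' protocols. The deposited scanner files hold the intensity of each spot, with background-corrected processed signals from Agilent Feature Extraction and probe positions on mm9, per the file headers. The authors' deposited table holds log2 values with 1 decimal and a median of 6.5 on every array. Its normalization method is not given in the sources used here.

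Here the processed signals were put on a log2 scale and centred on the 75th percentile of their array, without control spots and outlier spots (126 to 162 per array). Probes were named by accession through RefSeq GRCm38.p6 (26581 of 39429 matched). A gene took its brightest probe and was tested if 1 group or both had it well above background on each array. The test was limma's (3.58.1, lmFit and eBayes, under R 4.3.3) with Benjamini-Hochberg adjustment at 0.05, and its code was tested on simulated data. Intervals are limma's 95% intervals. All 37 genes and a fixed list of other pathway genes were named. The rule for the members uses names alone, but the members and lists were chosen with earlier results of these data known, so the choice was not independent of the data. Alternatives were normexp correction (offset 50) with and without repair of spots whose local background exceeded 5 times the array's median, quantile, median and cyclic loess normalization, other filters and probe rules, the deposited values, a replicate block, another variance model and each array left out. The lowest signals well above background were 12.2 to 14.4.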

Additional observations from a re-analysis of the deposited data

How the results depend on the processing

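The number of the 37 ribosome biogenesis genes past an adjusted p of 0.05 in limma was 0 under all 15 alternatives run, with the lowest adjusted p of a member between 0.0608 (without EnhDel replicate 1) and 1.00. The number past an unadjusted p of 0.05 was 0 with all arrays as processed here, 2 with the authors' deposited log2 values (Bop1 and Gar1, where 9.89% of all genes tested passed), and 0 to 6 when 1 array was left out, the 6 arising without EnhDel replicate 1, where 38.3% of all genes tested passed. The median log2 difference of -0.02 became -0.20 with normexp, -0.22 with median scaling and -0.066 with cyclic loess, and ranged from -0.071 to 0.012 when 1 array was left out. It was -0.03 with the repaired normexp, in which the array's median replaced the local background of 6 distorted spots on EnhDel replicate 1, which had reached 10214. Relative to the median of all genes tested it was below 0 in 15 of 15 alternatives, by 0.05 to 0.39. The 95% interval lay within 2-fold for 37 genes as reported, for 27 with normexp, 31 with median scaling, 36 with the deposited values and 16 and 15 without control replicate 1 and 2. Of the 37 genes, 9 had a difference below 0 under every one of the 16 settings (Nop56, Nhp2, Gar1, Ncl, Npm1, Rrs1, Wdr12, Nop16 and Mrto4). The other 28 did not keep 1 sign. That 0 stayed above 0 in every setting was fixed by median scaling, which put all 37 below 0. The 9 against 0 therefore does not show a direction, and the share over all genes tested is not given here. Of 568 member values under the alternatives, 75 moved by more than 1 SD between replicates. By the way this SD was set, leaving out 1 array could not move a value that far. The block and the other variance model leave every difference unchanged. The count is therefore no measure of how stable the values are. With the replicate number as a block the median stayed at -0.02 and the count at 0, with a lowest adjusted p of 0.627 in limma. The numbers do not pair the samples: deviations of same-numbered samples correlated at -0.02 across genes. The count of ribosomal protein genes below 0, 67 of 75, was 14 without EnhDel replicate 2. The cause of these shifts was not tested. With 2 arrays a group the fit has 2 residual degrees of freedom per gene, 1 with the block, and values below signals of about 12.2 to 14.4 could not be measured.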
